A study of Mus musculus with 12 samples.

Results

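MHC class II presentation was followed in the back skin of 12 mice through 10 genes. They were chosen by name, with earlier results of these data known. They encode the classical chains (H2-Aa, H2-Ab1, H2-Eb1), the invariant chain (Cd74), the peptide editor H2-DM (H2-DMa, H2-DMb1, H2-DMb2), its modulator H2-O (H2-Oa, H2-Ob) and the transactivator Ciita. All 10 were among the 56923 genes in the deposited count table, and all 10 had enough reads to be among the 18529 genes tested.

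The mice were female, 8 to 10 weeks old and on a C57BL/6 background, and skin was collected after 6 days of daily cream on the shaved back. WT control and WT IMQ mice (3 each) received vehicle cream (Vaseline) or 5% IMQ (imiquimod) cream, which induces psoriasis-like lesions. The other two groups (3 mice each) received the same creams and were labelled Lcn2-/-, a genotype meant to lack the secreted protein lipocalin 2, with WT littermates for comparison. The GEO labels call this genotype a knockdown in one field and a knockout in another, and give the control treatment as none, where the methods of the study name vehicle cream.

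Class II molecules carry peptides from endocytosed proteins to the surface of dendritic cells, Langerhans cells, macrophages and B cells, where CD4+ T cells read them. The α and β chains assemble with the invariant chain, whose remaining fragment is replaced by antigen peptide with the help of H2-DM, and H2-O restrains H2-DM. In skin, Langerhans cells of the epidermis and dendritic cells and macrophages of the dermis are the main carriers of class II. Ciita does not bind DNA itself, and it switches the whole group on by joining the RFX, CREB and NF-Y factors assembled on class II promoters.

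Library totals ranged from 16448226 to 28592110 counts (median 17971418), and a floor of 3 counts corresponded to 0.105 to 0.182 CPM (counts relative to the size of the library). Levels below are CPM scaled by edgeR's TMM factors, and a gene was called with an adjusted p under 0.05 over all 18529 tested genes in edgeR's quasi-likelihood test. Lcn2, the targeted gene, went against the genotype label: its levels were 10.5, 9.22 and 15.9 CPM in the control and 34.3, 29.9 and 49.8 CPM in the IMQ libraries labelled Lcn2-/-, against 6.28, 8.64 and 4.57 CPM in WT control and 61.2, 183 and 76.1 CPM in WT IMQ mice. The files do not show whether the counted reads stem from a non-functional transcript, so the genotype is given throughout as labelled. One protocol label mentions retina. The 8 retina genes examined summed to 0.471 to 3.03 CPM per library, with 2 of them (Crx and Nrl) at 0 in all libraries, while the skin keratins and other keratinocyte genes summed to at least 5173 CPM.

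After IMQ, all 10 class II genes fell in WT mice. The falls ran from 3.23-fold for H2-DMb1 to 6.95-fold for H2-Ab1, and no WT IMQ mouse reached the lowest WT control mouse for any of the 10. Together the 10 genes took 0.379%, 0.574% and 0.347% of all reads in WT control mice and 0.0456%, 0.105% and 0.0421% in WT IMQ mice. In mice labelled Lcn2-/- they took 0.441%, 0.197% and 0.337% with vehicle and 0.221%, 0.150% and 0.170% with IMQ, so that those groups overlapped. In whole skin, fewer class II-bearing cells and less class II RNA per cell cannot be told apart.

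**Figure D1:**
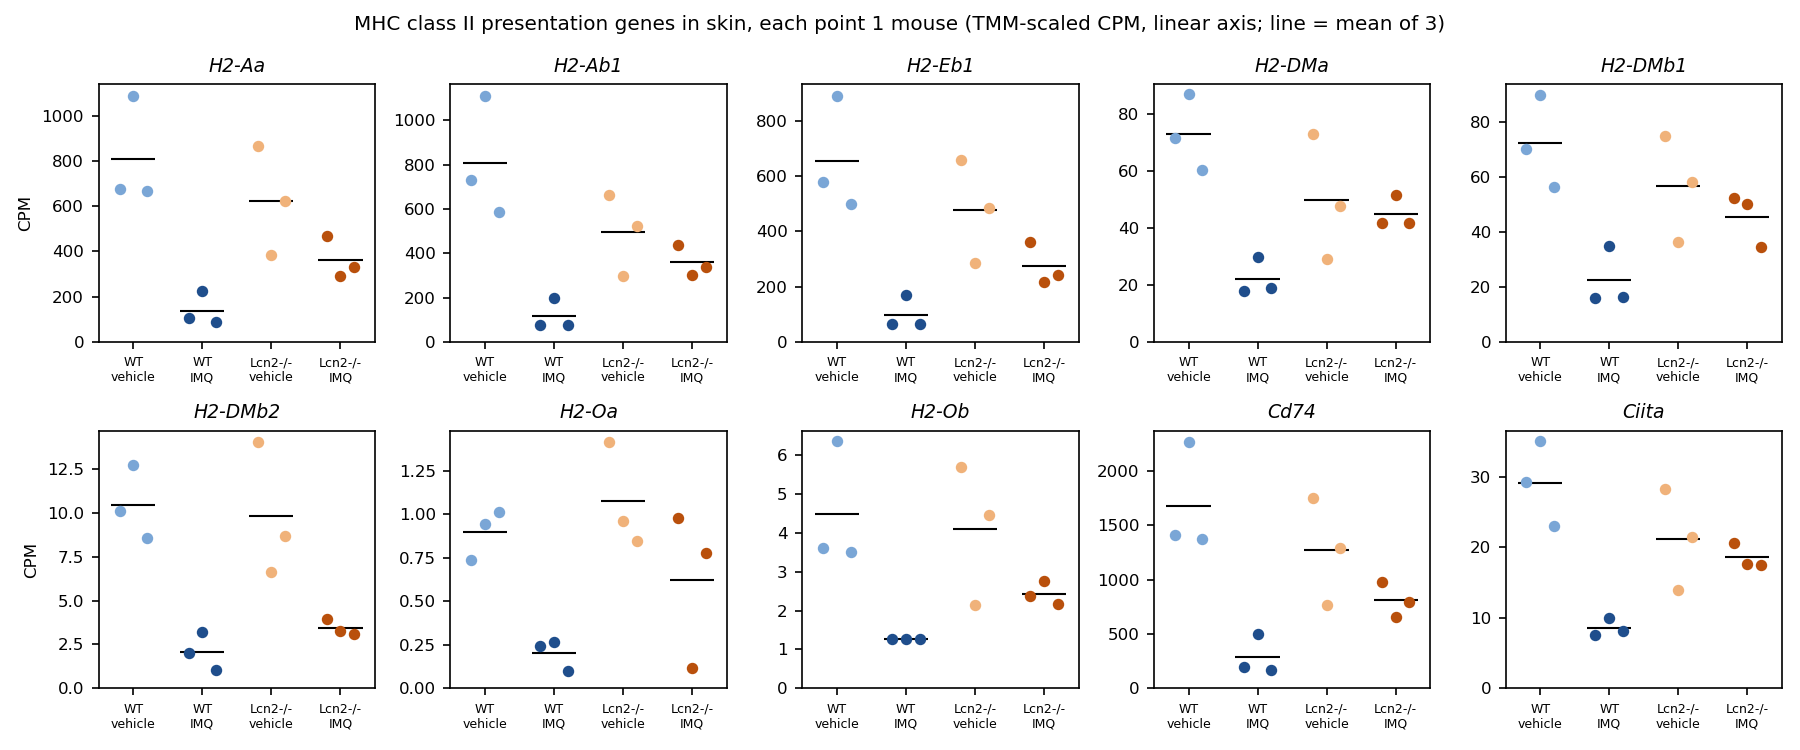
Levels of the 10 class II genes (vertical axes, TMM-scaled CPM, linear and starting at 0) in each of the 12 mice (points), by group, with the mean of 3 mice as a line. The 3 WT IMQ mice lay below the 3 WT control mice in all 10 panels, and the IMQ mice labelled Lcn2-/- lay above all 3 WT IMQ mice in 7 of them.

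H2-Aa encodes the α chain of I-A, the class II molecule that C57BL/6 mice display. It stood at 678, 1089 and 666 CPM in WT control mice and at 105, 224 and 86.8 CPM in WT IMQ mice. Under the Lcn2-/- label it stood at 866, 383 and 625 CPM in control and 469, 290.0 and 331 CPM in IMQ mice. The WT groups were far apart, while the highest IMQ mouse labelled Lcn2-/- exceeded the lowest control of its genotype. In WT mice the fall was 5.86-fold, a log2 fold change of -2.55 (SE 0.40, edgeR adjusted p = 0.000942).

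H2-Ab1, the β chain of I-A, was at 730.3, 1110.0 and 586 CPM in WT control and 77.8, 197 and 74.3 CPM in WT IMQ mice. It was at 664, 296 and 521 CPM in control and 436, 304 and 336 CPM in IMQ mice labelled Lcn2-/-. Each IMQ mouse labelled Lcn2-/- lay above each WT IMQ mouse, and all 3 lay above the lowest control of the same label. Its log2 fold change in WT mice, -2.80 (SE 0.43, edgeR adjusted p = 0.000744), was the largest fall among the 10 genes.

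H2-Eb1, the β chain of I-E, was at 577, 891 and 501 CPM in WT control and 64.9, 169 and 62.8 CPM in WT IMQ mice. The corresponding levels with the Lcn2-/- label were 660.1, 284 and 485 CPM and 362, 215 and 242 CPM. Its α chain partner is not made in C57BL/6 mice, and the pseudogene entry for it, H2-Ea-ps, had 0 counts in all 12 libraries. The fall of H2-Eb1 in WT mice was 6.65-fold (log2 fold change -2.73, SE 0.44, edgeR adjusted p = 0.00105), close to those of the I-A chains. H2-Eb2, a minor β chain gene outside the list of 10, reached at most 1.45 CPM and was not called in any comparison.

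Cd74 encodes the invariant chain, the chaperone that blocks the peptide groove and directs class II to endosomes. Its levels were 1405, 2261 and 1369 CPM in WT control and 199, 497 and 165 CPM in WT IMQ mice. Levels of 1752, 770.0 and 1291 CPM were found in control and 976, 659 and 790.0 CPM in IMQ mice labelled Lcn2-/-. The pattern over mice followed that of the classical chains: the ratio of Cd74 to the summed classical chains lay between 0.708 and 0.870 in all 12 libraries. In WT mice Cd74 fell 5.85-fold (log2 fold change -2.55, SE 0.43, edgeR adjusted p = 0.00146).

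H2-DMa and H2-DMb1 encode the subunits of H2-DM, which releases the invariant chain fragment in the endosome. H2-DMa was at 71.8, 87.0 and 60.4 CPM in WT control, 18.0, 29.7 and 18.9 CPM in WT IMQ, 72.8, 29.2 and 47.7 CPM in control labelled Lcn2-/- and 41.8, 51.5 and 41.9 CPM in IMQ labelled Lcn2-/- mice. H2-DMb1 was at 70.2, 90.0 and 56.5 CPM, 15.9, 35.0 and 16.3 CPM, 74.9, 36.5 and 58.3 CPM, and 52.2, 50.2 and 34.5 CPM in the same order of groups. Both were clearly separated between the WT groups and intermingled between the groups labelled Lcn2-/-. Their falls in WT mice were smaller than those of the classical chains, with log2 fold changes of -1.72 (SE 0.30, edgeR adjusted p = 0.00175) and -1.69 (SE 0.34, edgeR adjusted p = 0.00404). The 3 H2-DM genes summed to 7.66%, 6.14% and 7.16% of the classical chains in WT control and 14.5%, 11.5% and 16.2% in WT IMQ mice. Among mice labelled Lcn2-/- these shares were 7.39%, 7.51% and 7.04% in control and 7.73%, 13.0% and 8.75% in IMQ mice. The share was thus higher in every WT IMQ than in every WT control mouse, and this difference was not tested. Without strand in the library kit, reads of H2-DMa cannot be told from those of Brd2, which runs opposite to it and shares 360 exonic bases with it.

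H2-DMb2, a second β subunit gene next to H2-DMb1, was the one member called lower with IMQ in both genotypes. Its levels were 10.1, 12.7 and 8.56 CPM in WT control and 2.00, 3.23 and 1.07 CPM in WT IMQ mice. They were 14.0, 6.66 and 8.71 CPM in control and 3.97, 3.27 and 3.12 CPM in IMQ mice labelled Lcn2-/-. The groups did not overlap in either genotype. The log2 fold changes were -2.34 (SE 0.38, edgeR adjusted p = 0.00106) in WT mice and -1.51 (SE 0.37, edgeR adjusted p = 0.0122) with the Lcn2-/- label, and the latter had an adjusted p of 0.0516 without IMQ mouse 3 labelled Lcn2-/-. As a share of H2-DMb1, H2-DMb2 stood at 14.4%, 14.1% and 15.2% in WT control and 12.5%, 9.23% and 6.53% in WT IMQ mice, and at 18.7%, 18.2% and 14.9% in control and 7.60%, 6.53% and 9.04% in IMQ mice labelled Lcn2-/-. All 6 IMQ mice lay below all 6 control mice in this share, which was examined after its values were seen and was not tested. The paralogs are alike enough that the counting could have split reads between them. With their counts summed, the log2 fold change was -1.76 (SE 0.34, edgeR adjusted p = 0.0032) in WT mice and -0.44 (SE 0.33, edgeR adjusted p = 0.358) with the Lcn2-/- label, which ends the call in the latter.

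H2-Oa and H2-Ob encode the subunits of H2-O, which binds H2-DM and holds back its editing. H2-Ob was at 3.60, 6.36 and 3.51 CPM in WT control, 1.27, 1.28 and 1.26 CPM in WT IMQ, 5.68, 2.13 and 4.47 CPM in control labelled Lcn2-/- and 2.38, 2.75 and 2.16 CPM in IMQ labelled Lcn2-/- mice. The WT IMQ mice were nearly equal and below all others. Its log2 fold change in WT mice was -1.82 (SE 0.38, edgeR adjusted p = 0.0042). H2-Oa was counted by single reads: 16, 22 and 19 in WT control, 4, 4 and 2 in WT IMQ, 43, 18 and 19 in control labelled Lcn2-/-, and 16, 2 and 13 in IMQ labelled Lcn2-/- mice. IMQ mouse 2 labelled Lcn2-/- was at the level of the WT IMQ mice. The pooled counts of WT control mice were 4.66-fold those of WT IMQ mice (95% interval 2.36 to 10.2, counting error only), and the log2 fold change was -2.15 (SE 0.67, edgeR adjusted p = 0.0319). Leaving out any single WT mouse other than WT IMQ mouse 2 moved this adjusted p to between 0.0568 and 0.124, so the call for H2-Oa rested on the full set of mice.

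Ciita, the transactivator of the group, was at 29.3, 35.2 and 23.1 CPM in WT control and 7.51, 9.95 and 8.09 CPM in WT IMQ mice. Its levels under the Lcn2-/- label were 28.3, 14.0 and 21.4 CPM in control and 20.6, 17.7 and 17.4 CPM in IMQ mice. The 3 IMQ mice labelled Lcn2-/- fell within the range of their own controls and above every WT IMQ mouse. In WT mice Ciita fell 3.43-fold (log2 fold change -1.78, SE 0.25, edgeR adjusted p = 0.00037). It shares 329 exonic bases with Dexi on the opposite strand, whose reads (211 to 457 per library) cannot be told apart there.

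Across the series, 14.3% of the 18529 tested genes were called lower in WT IMQ than in WT control mice, against 10 of 10 class II genes. The groups did not overlap in the lower direction for 20.6% of tested genes, against 10 of 10. Called higher in this comparison were 0 of 10, against 14.2% of tested genes. The median log2 fold change was -2.25 over the 10 genes and -0.02 over all tested genes. The smallest p an exact permutation of 3 against 3 mice allows is 0.1, so the tests rest on the spread that edgeR shares across genes and groups. Nothing in the labels says more of the replicates than their numbers, and p-values measure the spread between these samples.

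Per length of exon (CPM per kb), the order of the mean levels in WT control mice was Cd74 (999.5), H2-Eb1 (338), H2-Ab1 (315), H2-Aa (214), H2-DMb1 (43.0), H2-DMa (21.2), H2-DMb2 (5.99), Ciita (3.06), H2-Ob (0.835) and H2-Oa (0.639). The neighbours H2-Eb1 and H2-Ab1, H2-Ab1 and H2-Aa, and H2-Ob and H2-Oa differed by less than the larger SD of the pair (n = 3). The order was the same in WT IMQ mice, where Cd74 had a mean of 171, H2-Eb1 of 50.8 and Ciita of 0.893 CPM per kb.

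In mice labelled Lcn2-/-, all 3 IMQ mice lay within the range of the vehicle mice for 4 of the 10 genes (H2-Ab1, H2-DMa, H2-Ob and Ciita), and at least 1 lay below it for the other 6. H2-DMb2 was the 1 gene of 10 called lower, against 11.2% of all tested genes, and none was called higher. It was also the 1 gene whose groups did not overlap, against 22.8% of tested genes in that direction. All 10 point estimates were negative, as were 53.4% of those over all tested genes, with a median of -0.71 over the 10 and -0.05 over all tested. The intervals were wide: the log2 fold change was -0.78 for H2-Aa (95% interval -1.62 to 0.06), -0.46 for H2-Ab1 (-1.34 to 0.41), -0.80 for H2-Eb1 (-1.72 to 0.11), -0.65 for Cd74 (-1.55 to 0.25) and -0.20 for Ciita (-0.72 to 0.32). A halving of the classical chains therefore lay inside the intervals, and a fall as large as in WT mice did not for any of these 5 genes. Control mouse 2 labelled Lcn2-/- was the lowest of its group for 9 of 10 members and control mouse 1 the highest for 10 of 10, which widens the spread of that group. Without control mouse 2, H2-Ob was called too (edgeR adjusted p = 0.0395), which made 2 of 10.

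Compared directly after IMQ, 2 of the 10 genes were called higher in mice labelled Lcn2-/- than in WT mice, against 2.19% of all tested genes, and 0 were called lower, against 2.60%. H2-Ab1 was 3.08-fold higher (log2 fold change 1.62, SE 0.41, edgeR adjusted p = 0.0487) and Ciita 2.18-fold higher (1.13, SE 0.25, edgeR adjusted p = 0.0349). The groups did not overlap for 7 of 10 (H2-Aa, H2-Ab1, H2-Eb1, H2-DMa, H2-Ob, Cd74 and Ciita), against 16.0% of tested genes that were higher without overlap. An unadjusted p under 0.05 was found for 9 of 10, H2-DMb2 being the exception, against 12.5% of tested genes in that direction. The median log2 difference was 1.26 over the 10 genes and -0.02 over all tested genes. Those of H2-Aa (1.39, SE 0.39, edgeR adjusted p = 0.0611), H2-Eb1 (1.47, SE 0.42, edgeR adjusted p = 0.0658) and Cd74 (1.49, SE 0.42, edgeR adjusted p = 0.0612) did not pass.

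How many members were called in this comparison turned on WT IMQ mouse 2, the highest WT IMQ mouse for 10 of 10 genes. Without it 7 of 10 were called (H2-Aa, H2-Ab1, H2-Eb1, H2-DMa, H2-DMb1, Cd74 and Ciita), against 6.69% of all tested genes, and without any other single mouse of the comparison 0 were. DESeq2 called 7 (6.21% of its tested genes) and edgeR on the compared mice alone 6 (6.34%), while 0 were called with the replicate number as a block and 1 without a filter on low counts. WT IMQ mouse 2 also had the most RNA of general leukocyte genes in its group: the 8 genes of that list summed to 1116, 1811 and 1050.0 CPM in WT IMQ mice. Its part in the class II values was not tested.

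**Figure D2:**
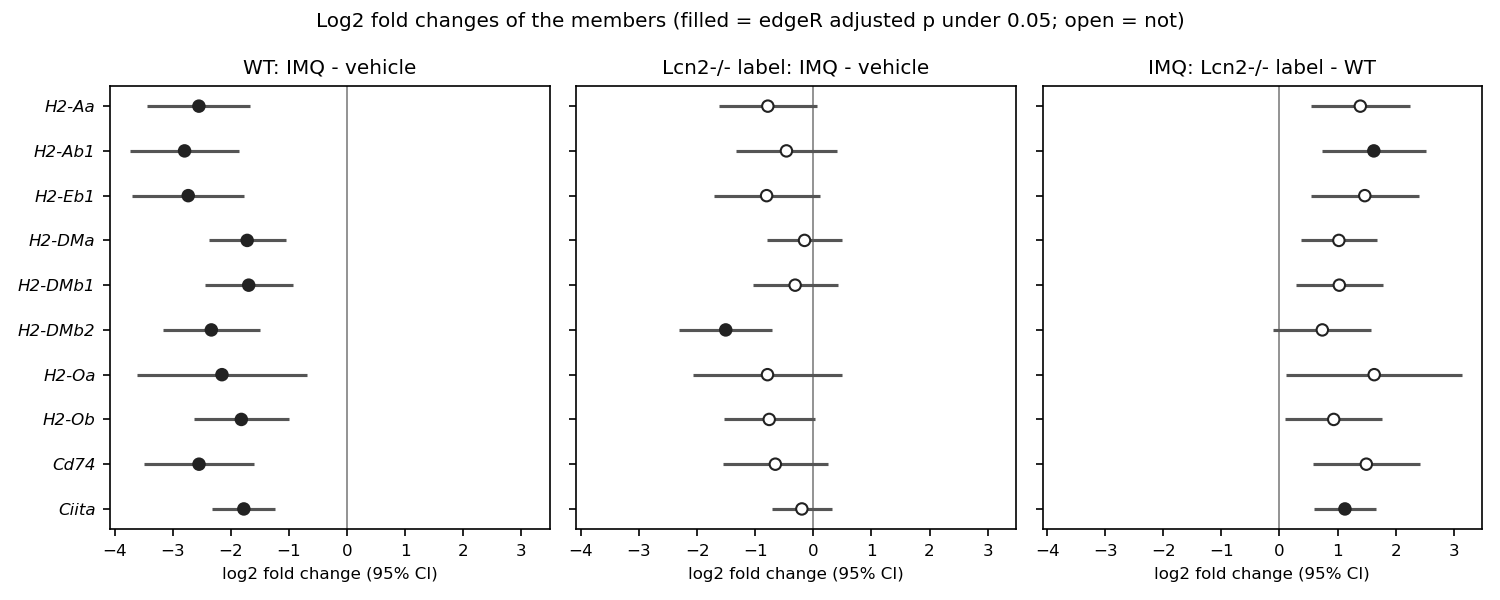
Log2 fold changes of the 10 genes (horizontal axis, with 95% intervals as lines) in WT mice, in mice labelled Lcn2-/-, and between the IMQ groups of both genotypes. Filled points have an edgeR adjusted p under 0.05: 10 in the first panel, 1 in the second and 2 in the third.

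No class II difference was called between the vehicle groups. None of the 10 genes was called between control mice labelled Lcn2-/- and WT control mice by edgeR or by DESeq2, and none had an unadjusted p under 0.05, against 3.95% of tested genes lower and 2.65% higher by that measure. The groups overlapped for all 10, while 5.18% of tested genes were lower and 4.19% higher without overlap. Over all tested genes 0.0108% were called in this comparison. Differences ran from -0.71 for H2-Ab1 (95% interval -1.59 to 0.17) to 0.26 for H2-Oa (-0.96 to 1.49) on the log2 scale. By sign, 9 of 10 were lower with the label (median -0.39), as were 49.8% of all tested genes. So were 12 of 12 macrophage and 8 of 8 general leukocyte genes (medians -0.94 and -0.69), none of them called. These vehicle mice also enter the response to IMQ with the label and the difference between the responses.

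The difference between the 2 responses to IMQ, which uses all 4 groups, was positive for all 10 genes and for 48.5% of all tested genes, that is, the change with IMQ was less negative with the Lcn2-/- label. It was called for Ciita alone (1.58 on the log2 scale, 95% interval 0.84 to 2.33, edgeR adjusted p = 0.0431), 1 of 10, against 1.37% of all tested genes in that direction. An unadjusted p under 0.05 was found for 7 of 10, against 12.3% of tested genes. H2-Ab1 had a larger difference with a wider error (2.33, SE 0.57, edgeR adjusted p = 0.0572), and H2-DMb2 a smaller one (0.83, SE 0.52, edgeR adjusted p = 0.342). Without WT IMQ mouse 2 the difference was called for 7 of 10 (5.27% of all tested genes), and DESeq2 on all mice also called 7 (5.59%). The call for Ciita was lost without any 1 of 9 of the 12 mice and with the replicate number as a block (adjusted p = 0.08). This comparison shares its mice with those above and is no separate evidence.

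Within groups, most class II genes varied together from mouse to mouse. After the group means were removed, the 45 pairs of members had correlations of log2 CPM between -0.02 and 0.99 over 12 mice, with a median of 0.84, and the points share libraries and depth. The order of the mice was not the same for all members: IMQ mouse 2 labelled Lcn2-/- was the highest of its group for 2 (H2-DMa and H2-Ob) and the lowest for 5. H2-Oa, with its few counts, had the weakest tie to the mean of the 10 genes, and H2-Aa the closest. Over 12 mice, with the differences between groups included, r was 0.813 and 0.997. After the group means were removed, r was 0.441 and 0.984. The mean of the 10 includes the gene itself, which raises these values. Outside the list, the 5 tested genes most like this mean over the 12 mice were Hcar1 (r = 0.97), Cd2 (r = 0.97), Mup18 (r = 0.97), Ccdc3 (r = 0.96) and Gpr141b (r = 0.96). Cd2, an adhesion receptor of T cells and other leukocytes, had mean levels of 10.2 CPM (WT) and 7.51 CPM (labelled Lcn2-/-) with vehicle and 2.61 and 4.77 CPM with IMQ. Hcar1, a lactate receptor, had means of 12.4 and 10.7 CPM with vehicle and 3.32 and 5.72 CPM with IMQ in the same order. Mup18 belongs to a family of near-identical copies, so its counts are uncertain. Ptprc (CD45), borne by all leukocytes, had r = -0.06 with the mean of the 10 genes over the 12 mice and r = 0.73 after the group means were removed.

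The promoters of 6 members are shown because these genes moved together and class II promoters are known for a shared X box and Y box, on which RFX and NF-Y sit. Sequences are from RefSeq (GRCm38.p6, chromosome 17), with the window reaching from 250 bases before to 50 bases after the gene start. Such a window was used for 7 of the 10 members, and H2-Ab1, Cd74 and Ciita are named only. Capitals mark the Y box letters TGATTGG, the X box letters AACNNATGATG and, in H2-Aa, TGACGTCA, the letters of the cyclic AMP element that CREB binds.
H2-Eb1, chr17:34305736-34305835, plus strand: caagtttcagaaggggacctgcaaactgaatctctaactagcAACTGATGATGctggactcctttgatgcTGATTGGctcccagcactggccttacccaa
H2-DMb1, chr17:34153058-34153157, plus strand: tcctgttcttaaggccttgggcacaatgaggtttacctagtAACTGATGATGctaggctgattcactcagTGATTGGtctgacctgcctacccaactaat
H2-DMb2, chr17:34145087-34145186, plus strand: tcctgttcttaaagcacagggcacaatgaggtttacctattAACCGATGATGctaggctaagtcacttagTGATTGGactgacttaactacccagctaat
H2-Ob, chr17:34238776-34238875, plus strand: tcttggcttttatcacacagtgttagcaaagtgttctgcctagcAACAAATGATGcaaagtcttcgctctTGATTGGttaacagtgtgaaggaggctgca
H2-Aa, chr17:34287844-34287943, minus strand: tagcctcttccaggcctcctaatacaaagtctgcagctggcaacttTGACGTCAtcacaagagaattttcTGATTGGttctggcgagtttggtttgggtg
H2-Oa, chr17:34092264-34092363, plus strand: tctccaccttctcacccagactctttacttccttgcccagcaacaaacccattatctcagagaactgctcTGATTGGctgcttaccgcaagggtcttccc

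The Y box letters were found in 6 of the 7 members with a window (all but H2-DMa), ending 38 to 85 bases before the gene start, and on either strand in 7.82% of all 32851 windows. For H2-DMa 2 windows were searched, chr17:34122582-34122881 and chr17:34125268-34125567, and the first overlaps the start of Brd2. Any other start of H2-DMa was not examined, so its lack of the letters holds for these windows only. The X box letters were found in 4 of the 7 and in 0.137% of all windows, and their gap to the Y box letters was 15 bases in H2-Ob, 17 in H2-Eb1 and 18 in H2-DMb1 and H2-DMb2. The letters TGACGTCA, found in 1.79% of all windows, lay 16 bases from the Y box letters in H2-Aa and were in no other member's window. The X box letters are the bases that the 4 members share there, so the counts describe the members and test nothing. The stretches of H2-DMb1 and H2-DMb2 were identical at 86 of 100 positions, and both hold X and Y letters at the same gap. The difference between the responses of these paralogs was not tested.

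Genes of the factors that act on these promoters showed no common change. Of 15 genes of class II transcription, 1 was called higher and 1 lower in WT mice after IMQ, against 14.2% and 14.3% of all tested genes. With the Lcn2-/- label 3 were called higher and 3 lower, against 14.1% and 11.2%. The medians were -0.05 in WT mice and -0.02 with the label. Rfx5, the DNA-binding RFX subunit, was at 14.8, 13.8 and 11.9 CPM in WT control and 11.9, 11.0 and 14.9 CPM in WT IMQ mice, which overlap. Its log2 fold change was -0.10 (SE 0.18) in WT mice and -0.60 (SE 0.18, edgeR adjusted p = 0.0311) with the Lcn2-/- label, where class II genes other than H2-DMb2 were not called. Prdm1, which encodes Blimp-1, a repressor of Ciita in plasma cells, was at 29.7, 25.8 and 29.6 CPM in WT control and 76.0, 58.1 and 55.5 CPM in WT IMQ mice, all 3 above all 3 controls (log2 fold change 1.16, SE 0.18, edgeR adjusted p = 0.000782). Under that label it was at 29.3, 41.5 and 46.0 CPM in control and 51.2, 43.6 and 56.6 CPM in IMQ mice, which overlap (0.38, SE 0.18, edgeR adjusted p = 0.143). The difference between these responses did not pass (-0.78, SE 0.25, edgeR adjusted p = 0.102). Kat2b, an acetyltransferase, was lower in WT mice (-0.37, SE 0.11, edgeR adjusted p = 0.0261). In mice labelled Lcn2-/-, Spi1 (PU.1, a myeloid factor) rose by 2.04 and Irf8 by 1.07, while Hdac2 fell by 0.65 on the log2 scale (edgeR adjusted p = 0.00535, 0.0248 and 0.0064).

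Interferon gamma, the main inducer of Ciita outside professional presenting cells, was at or near 0: Ifng reached at most 0.447 CPM in any library, was at 0 in all 3 IMQ mice labelled Lcn2-/- and was not tested. Of the 9 tested genes of interferon gamma input, Jak2 was called higher in WT mice (0.49, SE 0.15, edgeR adjusted p = 0.0302) and none lower. Over all tested genes 14.2% were called higher and 14.3% lower there. The Lcn2-/- label had 4 of 9 called higher and 2 lower, against 14.1% and 11.2% of all tested genes. Among them were Irf1 (-0.96), Ifngr1 (0.78) and Jak1 (0.65), with edgeR adjusted p of 0.0366, 0.0436 and 0.0238. None of the 9 was called by edgeR between the IMQ groups. There 2 were higher and 1 lower with an unadjusted p under 0.05, against 12.5% and 14.5% of tested genes.

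Few genes of the endosomal enzymes that prepare peptides were called in WT mice, and most rose with the label. Of 14 genes of endosomal processing, Ctsl, a cathepsin that trims the invariant chain, was called higher in WT mice (0.73, SE 0.18, edgeR adjusted p = 0.0121) and March8, a ubiquitin ligase that removes class II from the surface, lower (-0.35, SE 0.11, edgeR adjusted p = 0.0321). Over all tested genes, 14.2% were called higher and 14.3% lower in WT mice. With the Lcn2-/- label 11 of 14 were called higher and none lower, against 14.1% of all tested genes called higher. The largest of these were Lgmn (legumain, 2.06), March1 (a ligase like March8, 1.66), Ctss (cathepsin S, 1.61) and Ifi30 (a thiol reductase, 1.46), with edgeR adjusted p of 0.00183, 0.0237, 0.00552 and 0.00139. The median log2 fold change of the 14 was 0.23 in WT mice and 1.07 with the label. The difference between the responses passed edgeR's test for none of the 14, against 1.37% of all tested genes in the higher direction. At an unadjusted p under 0.05 it was higher for 9, against 12.3% of tested genes. Between the IMQ groups none of the 14 was called by edgeR, while 14 were higher with the label by sign, the same direction as the class II genes. Of all tested genes 48.7% were higher by sign. Of the 14, 7 were higher without overlap and 7 with an unadjusted p under 0.05, against 16.0% and 12.5% of tested genes. The difference between the lists was not tested. Of 9 tested costimulation genes, 1 was called lower in WT mice, against 14.3% of all tested genes. It was Cd83, which keeps class II at the surface of dendritic cells (-1.61, SE 0.37, edgeR adjusted p = 0.00782). With the label Cd80 was called higher (1.50) and Cd274 (PD-L1) lower (-1.41), with edgeR adjusted p of 0.0119 and 0.00568. These were 1 of 9 each, against 14.1% of tested genes higher and 11.2% lower.

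**Figure D3:**
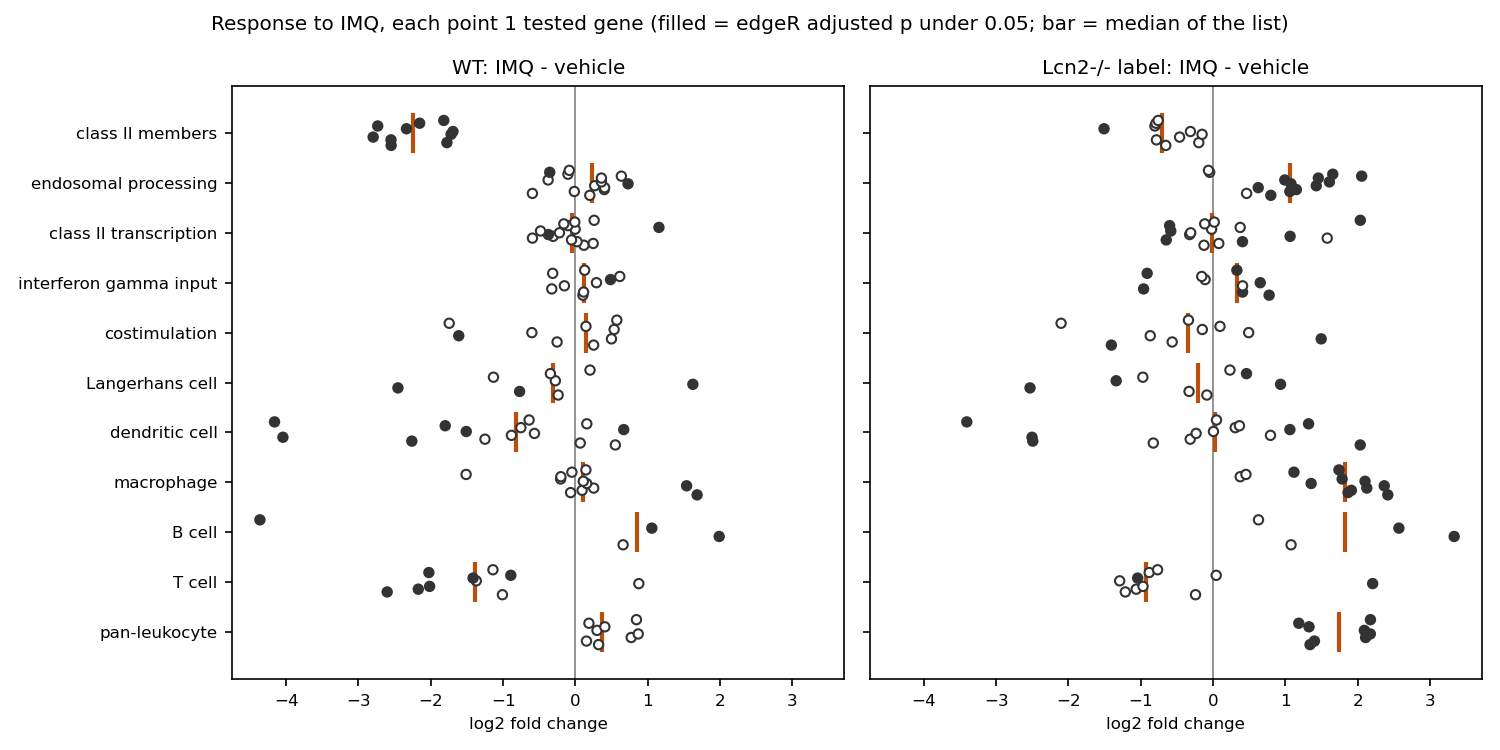
Log2 fold changes with IMQ (horizontal axes) in WT mice and in mice labelled Lcn2-/-, with 1 point for each tested gene of 11 lists, filled where the edgeR adjusted p was under 0.05, and a bar at each list's median. The class II members stand at a median of -2.25 in WT mice and -0.71 with the label, whereas the general leukocyte genes stand at 0.36 and 1.75. The values of Xcr1 (dendritic list) and Fcrla (B cell list) near -4 in WT mice rest on few counts after IMQ.

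The class II genes fell in WT skin, where no general leukocyte gene was called lower. Ptprc was at 109.7, 163 and 59.7 CPM in WT control and 120.0, 148 and 110.4 CPM in WT IMQ mice, and at 112, 49.7 and 106 CPM in control and 177, 177 and 254 CPM in IMQ mice labelled Lcn2-/-. Of the 8 general leukocyte genes 0 were called in WT mice by edgeR, against 14.3% of all tested genes lower and 14.2% higher. In WT mice 1 of 8 was higher with an unadjusted p under 0.05, against 19.4% of tested genes. With the label 8 of 8 were called higher, against 14.1%. Between the IMQ groups 0 of the 8 were called, while 8 were higher with the label by sign and 4 without overlap. Of tested genes 48.7% and 16.0% were so. The summed level of the 8 leukocyte genes ranged from 511 to 1429 CPM in WT control, 1050.0 to 1811 CPM in WT IMQ, 395 to 831 CPM in control and 1748 to 2394 CPM in IMQ mice labelled Lcn2-/-. The classical chains per unit of Ptprc stood at 18.1, 19.0 and 29.4 in WT control and 2.07, 3.98 and 2.03 in WT IMQ mice. With the label they stood at 19.6, 19.4 and 15.4 in control and 7.15, 4.57 and 3.57 in IMQ mice. Relative to Ptprc, then, IMQ mice of both genotypes lay below all control mice, and the IMQ groups overlapped. This ratio was not tested.

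**Figure D4:**
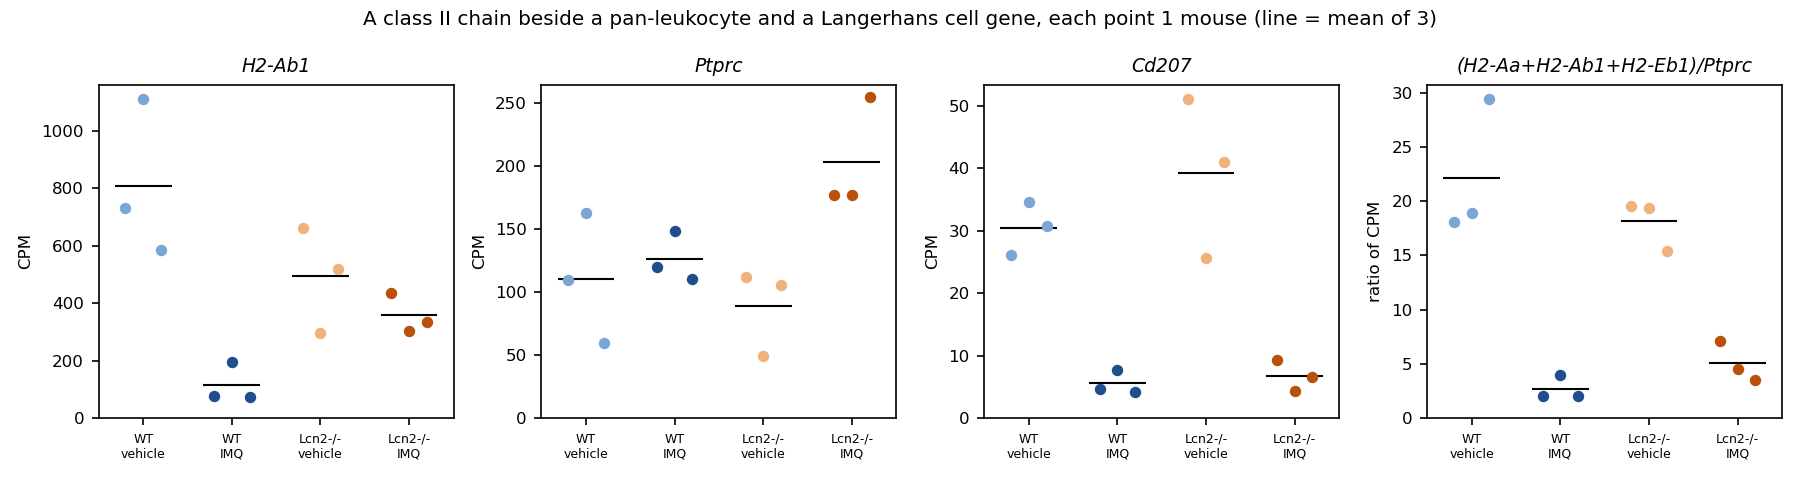
H2-Ab1, Ptprc and Cd207 (vertical axes, CPM) and the ratio of the summed classical chains to Ptprc (last panel) in each of 12 mice, with the mean of 3 as a line. Cd207 was low in all 6 IMQ mice, H2-Ab1 was lowest in the 3 WT IMQ mice, and Ptprc was highest in the 3 IMQ mice labelled Lcn2-/-.

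Langerhans cells are marked by Cd207 (langerin), which fell in both genotypes. It was at 26.2, 34.6 and 30.8 CPM in WT control and 4.73, 7.80 and 4.26 CPM in WT IMQ mice, and at 51.1, 25.6 and 41.0 CPM in control and 9.28, 4.44 and 6.66 CPM in IMQ mice labelled Lcn2-/-. The log2 fold changes were -2.45 (SE 0.33, edgeR adjusted p = 0.000318) and -2.53 (SE 0.33, edgeR adjusted p = 0.000424), and their difference was -0.08 (SE 0.45, edgeR adjusted p = 0.94). Of the 8 genes of the Langerhans list, 1 was called higher and 2 lower in WT mice, against 14.2% and 14.3% of all tested genes. With the label 2 were called higher and 2 lower, against 14.1% and 11.2%. Between the IMQ groups 1 of 8 was called higher, against 2.19%, and 0 lower, against 2.60%. The list's other genes are also expressed by keratinocytes and other skin cells (Cd24a 1.62 and Cd1d1 -0.77 in WT mice, Epcam -1.34 with the label, log2 scale). Its summed level was 432 to 591 CPM in WT control, 776 to 910.2 CPM in WT IMQ, 526 to 613 CPM in control and 576 to 710.3 CPM in IMQ mice labelled Lcn2-/-.

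Dendritic cell genes were mixed. Of 14, 5 were called lower and 1 higher in WT mice, against 14.3% and 14.2% of all tested genes, and 3 lower and 3 higher with the label, against 11.2% and 14.1%. Cd209a, of monocyte-derived and dermal dendritic cells, was at 46.2, 67.9 and 39.6 CPM in WT control, 2.24, 5.58 and 1.65 CPM in WT IMQ, 62.9, 29.3 and 41.7 CPM in control and 8.55, 6.37 and 8.70 CPM in IMQ mice labelled Lcn2-/-, and so was lower after IMQ in every mouse of both genotypes. Xcr1, of cross-presenting dendritic cells, was at 3.62 to 5.67 CPM in WT control and 0.0606 to 0.436 CPM in WT IMQ mice. It was also lower with the label, at 3.14 to 6.44 CPM in control and 0.0600 to 0.916 CPM in IMQ mice. The chemokine Ccl22 fell by 2.26 in WT mice and by 2.49 with the label on the log2 scale. Flt3, the growth factor receptor of dendritic cells, followed the class II pattern: it was at 8.60, 13.6 and 12.5 CPM in WT control and 3.64, 5.85 and 2.76 CPM in WT IMQ mice, and at 12.7, 6.50 and 10.5 CPM in control and 9.59, 8.83 and 11.5 CPM in IMQ mice labelled Lcn2-/-. It was lower with IMQ in WT mice (-1.51, SE 0.32, edgeR adjusted p = 0.00456). After IMQ it was higher with the label (1.30, SE 0.32, edgeR adjusted p = 0.0445), as was Siglech of plasmacytoid dendritic cells (2.00, SE 0.48, edgeR adjusted p = 0.0429). These were 2 of 14 called higher between the IMQ groups, against 2.19% of all tested genes. By sign 13 of the 14 were higher with the label there, against 48.7% of tested genes. Of the 14, 7 were higher without overlap and 7 with an unadjusted p under 0.05, against 16.0% and 12.5%. The list's summed level ranged from 348 to 648 CPM in WT control, 328 to 446 CPM in WT IMQ, 293 to 452 CPM in control and 537 to 656 CPM in IMQ mice labelled Lcn2-/-. How far dendritic cells account for the class II values was not tested.

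Macrophage genes rose after IMQ with the label. Of 12, 2 were called higher in WT mice (Adgre1, or F4/80, 1.68; Cd14, 1.54), near the 14.2% of all tested genes, and 10 with the label (14.1%), among them Adgre1 (2.42), Cd14 (2.37), the complement gene C1qc (2.13) and Cd68 (2.10). Between the IMQ groups 1 of 12 was called higher (Mertk, 0.84, edgeR adjusted p = 0.0495), against 2.19% of all tested genes. The difference of the responses passed for none, against 1.37% of tested genes in the higher direction. At an unadjusted p under 0.05 it was higher for 7, against 12.3%. The summed level ranged from 1016 to 4687 CPM in WT control, 2337 to 4086 CPM in WT IMQ, 987 to 1880.5 CPM in control and 3827 to 5215 CPM in IMQ mice labelled Lcn2-/-. The part of macrophages in the class II values was not tested. B cells, which carry class II constitutively, left little RNA: Ms4a1, their surface marker CD20, stayed at or below 0.600 CPM in all libraries. The 8 B cell genes summed to 3.14 to 11.2 CPM in WT control, 7.99 to 15.4 CPM in WT IMQ, 4.42 to 7.32 CPM in control and 17.2 to 25.1 CPM in IMQ mice labelled Lcn2-/-, of which Cd22 and Cd79b were called higher with IMQ in both genotypes. Fcrla was called lower in WT mice and higher between the IMQ groups, with 0.638 to 1.76 CPM in WT control, 0.0484 to 0.0672 CPM in WT IMQ and 0.550 to 1.68 CPM in IMQ mice labelled Lcn2-/-.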

How the data were processed

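Skin RNA of 12 mice (4 groups of 3, grouped by the GEO labels) was sequenced as paired reads of 150 bp from a TruSeq kit that does not keep strand. The authors deposited raw counts per Ensembl gene, without normalization. The submitters' processing notes name HISAT and mm8, and the counter and annotation are not given in the sources used here. Symbols, exon lengths and overlaps came from GENCODE M21 (GRCm38), matched by identifier for 52073 of 56923 genes (91.5%), and unmatched genes held 0.567% of the counts. Promoters came from RefSeq (GRCm38.p6).

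Counts were scaled by TMM and tested with edgeR 4.0.16 (limma 3.58.1, R 4.3.3): one quasi-likelihood model with the 4 groups as terms and robust spread, on the 18529 genes kept by filterByExpr with a minimum count of 10 and a minimum total of 15, in 5 contrasts with Benjamini-Hochberg adjustment over all tested genes. The common biological coefficient of variation was 0.253, and normalization factors lay between 0.905 and 1.10. Within groups, no pair of libraries was alike within sampling noise (chi-square per degree of freedom at least 11.8). The labels give no batch or date. The floor of 3 counts covers counting error only, because reads were counted without molecular identifiers.

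The 10 members and the lists of other genes were chosen with earlier results of these data known, and the study's own comparison was made with DESeq2, used here as an alternative (1.42.0). Genes named are the 10 members, up to 4 genes of each other list with the largest absolute change among those called, Lcn2, and the 5 tested genes closest to the members' mean standardized log2 CPM. Rfx5, Ifng, Ptprc, Flt3, Siglech, Ms4a1 and the pair H2-Ea-ps and H2-Eb2 were named after their values were seen, and some genes of the lists are not reported here by name. Alternatives were RLE size factors, DESeq2, no filter, at least 10 counts in every library, the compared mice only, the replicate number as a block, each mouse left out, calls with a fold above 2, and the H2-DMb paralogs summed. The scripts were tested on simulated counts. Figures were drawn with matplotlib 3.10.9.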

Additional observations from a re-analysis of the deposited data

Results flagged for a closer look

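One result met the criteria for a closer look. The response of Ciita to IMQ differed between WT mice and mice labelled Lcn2-/- by 1.58 on the log2 scale (SE 0.34, edgeR adjusted p = 0.0431 for the difference itself). In WT mice Ciita went from 29.2 ± 6.04 CPM with vehicle to 8.52 ± 1.27 CPM with IMQ (SD, n = 3). Under the Lcn2-/- label it went from 21.3 ± 7.15 CPM to 18.6 ± 1.78 CPM (SD, n = 3). Over 12 fits that left out 1 mouse each, the adjusted p ranged from 0.0208 to 0.136, and the difference was called in 3 of them.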

How the results depend on the processing

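In WT mice, 9 or 10 of the 10 members were called lower under all alternatives, with 9 where H2-Oa had too few counts, where the H2-DMb paralogs were summed or in 5 of 6 fits without 1 mouse. With the Lcn2-/- label the count of 1 became 0 with the paralogs summed, and ranged from 0 to 2 with 1 mouse left out. Between the IMQ groups the count of 2 became 7 with DESeq2, 6 on the compared mice only, 1 without a filter, 0 with the replicate block and 8 with a fold above 2 and an unadjusted p under 0.05 (3.10% of tested genes), and ranged from 0 to 7 with 1 mouse left out. For the difference between the responses the count of 1 became 7 with DESeq2, 0 with the replicate block and 7 with a fold above 2 and an unadjusted p (6.06% of tested genes), and ranged from 0 to 7 with 1 mouse left out. Between the control groups it was 0 throughout. The causes of these moves were not tested.

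Signs turned only with 1 mouse left out, among values that were not called. With the label, the log2 fold change ranged from -0.42 to 0.23 for H2-DMa and from -0.42 to 0.066 for Ciita, positive without control mouse 1. Between control groups it ranged from -0.45 to 0.12 for H2-DMb2 and from -0.44 to 0.24 for H2-Ob, positive without WT control mouse 2 (0.10 and 0.24) or control mouse 2 labelled Lcn2-/- (0.12 and 0.17).

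Replicate numbers are shared by groups but not by animals. Over 18 same-numbered pairs, deviations from group means correlated between -0.555 and 0.199 (mean -0.05), 1 pair was above 0.1 and 2 of 12 libraries correlated best with their own number, so the numbers do not pair the mice. With the block, the count was 10 in WT mice, 1 with the label and 0 between controls. Depth limits H2-Oa, with 2 to 43 counts per library.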

Other observations

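T cell genes, whose products read class II, moved in part with it. Of 10, 6 were called lower in WT mice after IMQ, against 14.3% of all tested genes, among them Cd3d (-2.60), Cd3e (-2.17), Trac (-2.03) and Cd3g (-2.02 on the log2 scale, edgeR adjusted p = 0.00461, 0.0179, 0.011 and 0.00649). With the Lcn2-/- label Lck was called lower (-1.04) and Cd4 higher (2.21), 1 of 10 each, against 11.2% of tested genes lower and 14.1% higher. Without Thy1, which fibroblasts also express, the list summed to 22.9 to 54.9 CPM in WT IMQ and 48.6 to 70.4 CPM in IMQ mice labelled Lcn2-/-, which overlap. Cd4 is also expressed by some myeloid cells. None of the 10 was called by edgeR between the IMQ groups, with 2 higher at an unadjusted p under 0.05, against 12.5% of tested genes.

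Genes of other skin cells differed between the IMQ groups as well. Of 8 fibroblast genes, Col1a1 (1.23), Col1a2 (1.06) and Col3a1 (1.01) were called higher with the label after IMQ, against 2.19% of all tested genes (edgeR adjusted p = 0.0215, 0.0219 and 0.0349), and the 8 genes summed to 10366 to 11025 CPM in WT IMQ and 20334 to 21084 CPM in IMQ mice labelled Lcn2-/-. Of 10 keratinocyte genes, Dsg3 (-1.09) and Trp63 (-0.85) were called lower, against 2.60% of all tested genes (edgeR adjusted p = 0.0465 and 0.0353), and the list summed to 29140 to 38520 CPM in WT IMQ and 16340 to 27995 CPM in IMQ mice labelled Lcn2-/-. Of 7 tested neutrophil genes, 6 were called higher with IMQ in WT mice and 7 with the label, against 14.2% and 14.1% of all tested genes. The part of these cell types in the class II values was not tested.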
